A study of Homo sapiens with 6 samples.

Results

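The zinc finger genes of chromosome 19 are described here by the binding regions of FOSL2 and JUNB at and around them in HaCaT cells, an immortalised line of human skin keratinocytes. Members were the protein-coding genes of chromosome 19 in the RefSeq annotation whose symbol is ZNF followed by digits only, which gave 240 of the 19974 protein-coding genes on the autosomes and X. The choice used the symbol alone, and protein sequences were not analysed here. FOSL2 and JUNB are subunits of AP-1, a dimeric transcription factor, and each was mapped by ChIP-seq with libraries made by ChIPmentation (3 libraries per factor, untreated cells of the same line, a different antibody for each factor). Each factor had 1 deposited list of regions for its 3 libraries together, with 75703 FOSL2 and 40061 JUNB regions on these chromosomes, so the values below carry no error between replicates, the depth is unknown and no difference was tested. Genes and regions are not replicates, and the 95% Wilson intervals given cover counting error only. Comparison sets were the 1211 other protein-coding genes of chromosome 19, the 237 ZNF genes of other chromosomes and all 19974 genes.

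Most ZNF genes of chromosome 19 arose by repeated tandem duplication and lie side by side in clusters. Many encode a row of C2H2 zinc fingers that read DNA sequence, joined to a KRAB domain. The KRAB domain binds TRIM28, which brings in the methyltransferase SETDB1 and heterochromatin proteins, and the best known targets of this repression are transposable elements. AP-1 dimers bind the sequence TGA(C/G)TCA, and some JUN-containing dimers also bind the cyclic AMP element TGACGTCA.

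A JUNB region was called JUNB-only where it had no base in common with a FOSL2 region, and shared otherwise. The promoters of 4 members with such regions are printed as examples. They are the 250 bases before an annotated start (RefSeq, GRCh38.p14, 5′ to 3′ on the gene's strand), with matches to TGANTCA, TGACGTCA and its core TGACG on either strand in capitals. ZNF121 (chr19:9584505-9584754, minus strand), ZNF823 (chr19:11738947-11739196, minus strand) and ZNF460 (chr19:57279732-57279981, plus strand) had the 3 highest JUNB fold enrichments among members with a JUNB-only region at an end, and ZNF235 (chr19:44305026-44305275, minus strand) had the highest of a shared region over a promoter in the table.
ZNF121: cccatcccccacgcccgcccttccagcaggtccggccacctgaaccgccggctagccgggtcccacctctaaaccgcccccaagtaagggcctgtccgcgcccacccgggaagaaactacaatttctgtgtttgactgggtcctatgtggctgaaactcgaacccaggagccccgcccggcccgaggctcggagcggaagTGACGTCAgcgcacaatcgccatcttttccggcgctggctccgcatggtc
ZNF823: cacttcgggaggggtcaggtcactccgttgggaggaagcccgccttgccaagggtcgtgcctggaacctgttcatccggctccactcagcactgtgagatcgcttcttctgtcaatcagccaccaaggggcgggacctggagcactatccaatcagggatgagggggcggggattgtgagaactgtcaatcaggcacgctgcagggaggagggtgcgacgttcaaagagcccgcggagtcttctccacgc
ZNF460: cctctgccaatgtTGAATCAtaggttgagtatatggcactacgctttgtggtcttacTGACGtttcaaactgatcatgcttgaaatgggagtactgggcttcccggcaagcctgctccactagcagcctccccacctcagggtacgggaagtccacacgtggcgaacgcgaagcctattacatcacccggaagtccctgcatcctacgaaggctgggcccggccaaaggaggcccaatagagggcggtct
ZNF235: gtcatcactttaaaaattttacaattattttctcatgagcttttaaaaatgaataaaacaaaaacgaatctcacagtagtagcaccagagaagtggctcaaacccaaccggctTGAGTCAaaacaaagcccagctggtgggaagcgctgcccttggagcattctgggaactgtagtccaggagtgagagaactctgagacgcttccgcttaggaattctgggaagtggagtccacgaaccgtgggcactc
The JUNB summit, the position of highest signal, lay 69 bp before the start of ZNF121, 99 bp before that of ZNF823, 40 bp before that of ZNF460 and 46 bp after that of ZNF235. The fold enrichment, the authors' ratio of signal over background for a region, was 6.22, 5.80, 5.24 and 8.64 for JUNB. The region at ZNF235 had a FOSL2 partner of 11.7, and the other 3 regions had none. ZNF121 held a whole cyclic AMP element, ZNF460 a TGAATCA and a separate TGACG, ZNF235 a TGAGTCA, and ZNF823 no match to any of these 3 in the printed bases. The printed bases are not the whole content of the regions. The region at ZNF235 covered only part of them, and that at ZNF460 also held a TGACGTCA beyond them, printed further below.

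JUNB was found at the ends of members about as often as at other genes. Any base of a JUNB region lay within 1 kb of either end in 65 of 240 members (27.1%, Wilson interval 21.9 to 33.0), against a background of 29.3% of all protein-coding genes and 28.6% of the other genes of chromosome 19. FOSL2 was found at the ends of 59 members (24.6%, 19.6 to 30.4), against a background of 31.2% and against 31.4% on the rest of chromosome 19. Of the 240 members, 31 had both factors at an end (12.9%, against 18.5% of all genes), 34 had JUNB without FOSL2 (14.2%, against 10.8%) and 28 had FOSL2 without JUNB (11.7%, against 12.7%). ZNF genes elsewhere had JUNB without FOSL2 in 14.8%. A JUNB-only region was at an end of 36 members (15.0%, background 14.1%), a shared region at an end of 30 (12.5%, background 17.5%) and a FOSL2-only region at an end of 32 (13.3%, background 15.6%). The ZNF genes of other chromosomes were higher on both counts, with JUNB at an end of 82 of 237 (34.6%) and FOSL2 at an end of 85 (35.9%).

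Away from their ends the members had fewer called regions of both factors than other genes. Many members have close copies nearby, and whether the uniqueness of reads plays a part in the counts below was not tested. Within 10 kb of an end, 108 members (45.0%) had a FOSL2 region, against a background of 70.2%, and 96 (40.0%) had a JUNB region, against a background of 56.1%. A shared region lay within 10 kb of 57 members (23.8%, Wilson interval 18.8 to 29.5), against a background of 43.5%, against 46.0% of the other genes of chromosome 19 (43.2 to 48.8) and against 41.4% of ZNF genes elsewhere (35.3 to 47.7). A JUNB-only region lay within 10 kb of 59 members (24.6%, background 26.4%) and a FOSL2-only region within 10 kb of 78 (32.5%, background 52.2%). For 109 members (45.4%) neither factor had a region within 10 kb, which was so for 22.2% of the other chromosome 19 genes and 24.3% of all genes. Both factors without a shared region lay near 17 members (7.08%, against 7.31% of all genes). JUNB without FOSL2 lay near 23 (9.58%, against 5.42% of all genes and 10.1% of ZNF genes elsewhere), and FOSL2 without JUNB near 35 (14.6%, against 19.6% of all genes). ZNF709 is among both the 57 and the 35, since its shared FOSL2 region reached within 10 kb and the JUNB partner did not. Members are longer than their neighbours on the chromosome, with a median of 23.1 kb against 12.8 kb, and close to ZNF genes elsewhere at 23.5 kb.

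The same contrast was seen as a density of summits. Within 1 kb of member ends there were 71 JUNB summits, or 75.8 per Mb, against 70.4 per Mb at the ends of other chromosome 19 genes. Inside members and more than 1 kb from their ends there were 33 JUNB summits in 6.39 Mb, or 5.17 per Mb, against 19.6 per Mb inside the other genes and 12.7 inside ZNF genes elsewhere. Outside members, from 1 to 10 kb away, JUNB had 8.71 summits per Mb, against 26.3 for the other genes. FOSL2 had 65.2 per Mb at member ends (74.6 for the other genes), 8.61 inside (33.7) and 14.3 outside (46.8). JUNB-only regions inside members, at 2.66 per Mb, lay under those inside other chromosome 19 genes (5.11) and level with those inside all genes (2.66), whereas shared ones were at 2.50 per Mb against 14.5 and 11.9. JUNB-only regions made up 51.5% of JUNB summits inside members (17 of 33, Wilson interval 35.2 to 67.5), against 26.0% inside other chromosome 19 genes (22.1 to 30.3).

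**Figure D1:**
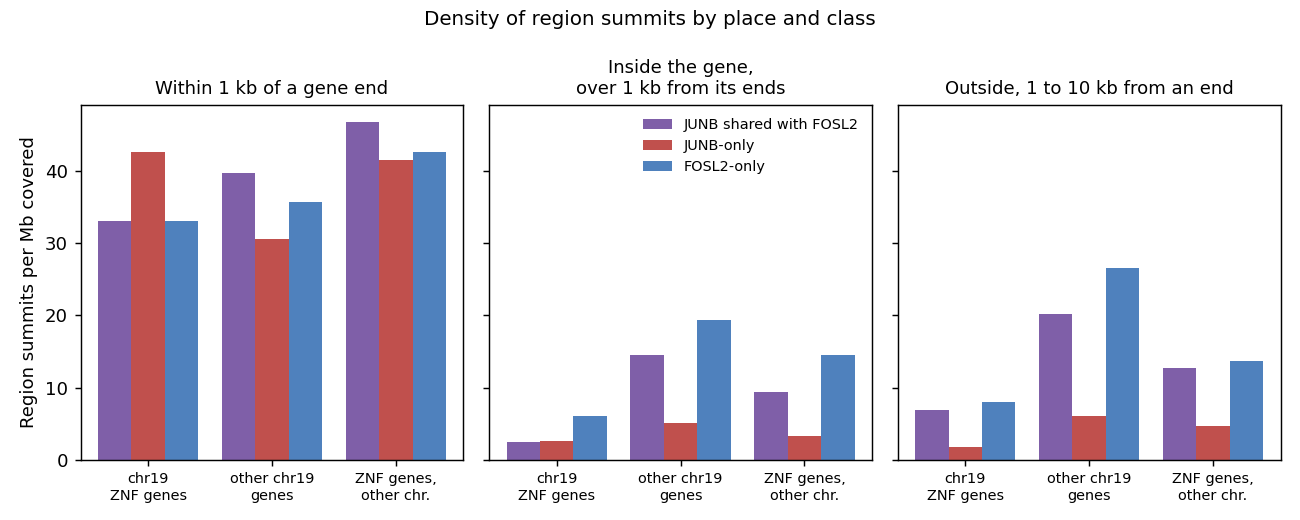
Bars give region summits per Mb of covered sequence (y axis) for 3 sets of genes (x axis), split into JUNB regions shared with FOSL2, JUNB-only and FOSL2-only regions, in 3 places relative to the genes. At the ends the JUNB-only bar of the chromosome 19 ZNF genes, at 42.7 per Mb, stands above their shared bar, at 33.1, and inside and outside the genes each of their bars is lower than that of both other sets.

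Regions at member ends were mostly at the starts, as at other genes. Far-end shares were below those of all genes, as they were for ZNF genes elsewhere. The promoter table gave a strand for 210 members. Among these, JUNB lay within 1 kb of the start-side end in 55 (26.2%) and of the far end in 4 (1.90%), and FOSL2 in 49 (23.3%) and 5 (2.38%). Over all genes the JUNB shares were 27.4% and 5.43% and the FOSL2 shares 26.9% and 8.44%. For ZNF genes elsewhere the JUNB shares were 33.8% and 2.56% and the FOSL2 shares 35.4% and 5.64%. Of the 975 other chromosome 19 genes, JUNB lay at the start side in 244 and at the far end in 72, and FOSL2 in 264 and 87. In the first kb inside the start-side end, members had 8.57 JUNB-only summits per 100 genes (18 in 210 genes), against 3.18 in the other genes (31 in 975). In the kb before it the values were 7.14 and 7.69. ZNF genes elsewhere had 3.59 JUNB-only summits per 100 genes in the first kb inside and 11.3 in the kb before. All protein-coding genes had 4.81 and 8.73. Shared JUNB summits gave 7.14 and 5.24 per 100 members before and after it, against 9.54 and 4.31. The start-side end is the outermost annotated one, so a start further inside a gene counts as inside.

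**Figure D2:**
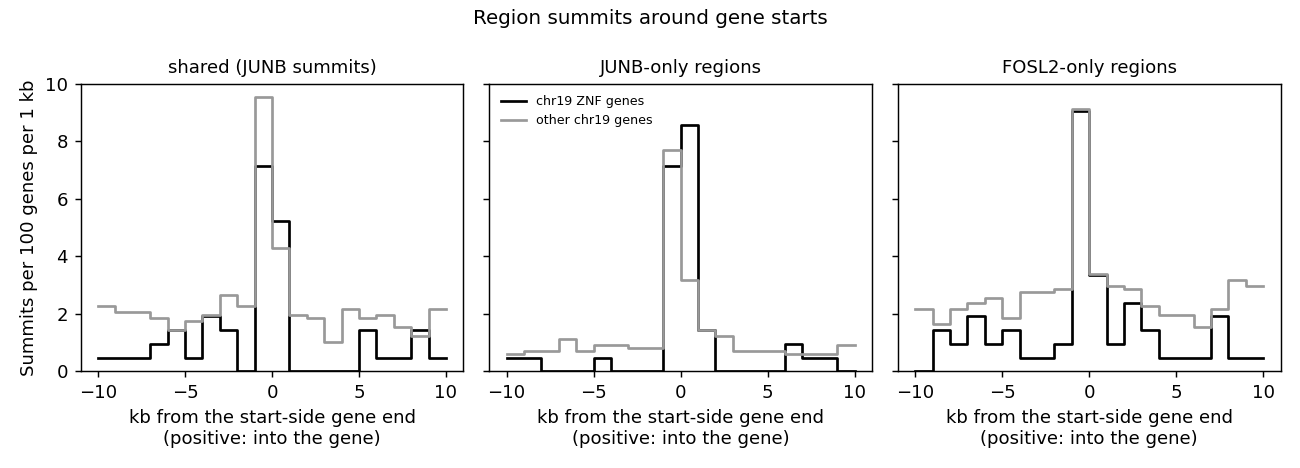
Lines give summits per 100 genes in bins of 1 kb (y axis) against the distance from the start-side gene end (x axis, positive into the gene) for 210 ZNF genes (black) and 975 other genes (grey) of chromosome 19. Both sets peak beside the end in each class, and in the first kb of the gene JUNB-only summits reach 8.57 per 100 ZNF genes against 3.18. In the kb before the end they stand at 7.14 against 7.69.

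JUNB-only regions outnumbered shared ones at member ends. Of the 71 JUNB summits within 1 kb of a member end, 40 were JUNB-only (56.3%, Wilson interval 44.8 to 67.2), against 129 of 297 at other chromosome 19 genes (43.4%, 37.9 to 49.1), 39 of 83 at ZNF genes elsewhere (47.0%, 36.6 to 57.6) and 47.7% at all protein-coding genes (46.4 to 49.1). The intervals of the members and of the other sets overlap. Over all of chromosome 19, 32.1% of JUNB regions were JUNB-only. Among regions under a fold enrichment of 4.28, the median of all JUNB regions at gene ends, 28 of 44 at member ends were JUNB-only (63.6%), against 66.0% at all genes. Among those at or above it, 12 of 27 were (44.4%, 27.6 to 62.7), against 29.5% at all genes and 28.9% at other chromosome 19 genes. JUNB-only regions at member ends had a median fold enrichment of 3.65 (quartiles 3.27 and 4.50, range 2.21 to 6.22), and those at other chromosome 19 genes 3.78. Shared JUNB regions at member ends had a median of 4.26, against 4.69 at other chromosome 19 genes and 4.83 at all genes. FOSL2-only regions at member ends, 31 of 61, had a median FOSL2 fold enrichment of 3.95, against 4.36 at other chromosome 19 genes. At member ends, 30 of 40 JUNB-only and 21 of 31 shared JUNB summits lay within 250 bp of an end. The same count was not made for other genes, where summits also peaked beside the start-side end. Of the JUNB-only regions at member ends 12 and of the shared ones 10 also lay inside or within 10 kb of another member, and 4 and 5 had a summit within 1 kb of the end of a gene that is no member.

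After ZNF121, ZNF823 and ZNF460, the highest JUNB-only regions at member ends belonged to ZNF223 (5.22, 234 bp from its end), ZNF562 (5.15, 42 bp) and ZNF586 (4.87, 57 bp). ZNF823 and ZNF586 had no FOSL2 region within 10 kb, and neither had ZNF121, whose nearest FOSL2 summit was 12650 bp from an end. By their nearest JUNB summit, the 2 members just inside 1 kb of an end were ZNF587 and ZNF274, at 873 and 696 bp. The 2 just outside by that measure were ZNF701 and ZNF440, at 1024 and 1090 bp, and both count among the 65 members with JUNB at an end, since other bases of their regions lay within 1 kb.

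The strongest JUNB regions of members were shared with FOSL2. ZNF57 had a pair with the JUNB summit 8089 bp inside its start-side end, of 12.3 for FOSL2 and 10.5 for JUNB, with summits 23 bp apart, besides a shared pair at the start of 5.36 and 3.97. ZNF227 had a pair of 11.1 and 9.73 with the JUNB summit 5039 bp inside its start. ZNF233 and ZNF235 carried strong pairs at an end, of 10.9 and 9.12, and of 11.7 and 8.64. ZNF561 had a pair of 12.3 and 7.18 beyond its far end, and ZNF653 one of 11.1 and 6.97 inside. These are the 6 members with the highest JUNB fold enrichment of a shared region within 10 kb. Deeper in long genes, ZNF536, a regulator of neuronal differentiation, held 1 pair of 10.6 and 8.48, with the JUNB summit 30444 bp from an end, and no region near its ends. ZNF83 had the most regions inside, 4 of each factor, of which the strongest pair had 10.2 and 7.41. ZNF114 followed with 3 JUNB and 1 FOSL2 region inside, and ZNF57, ZNF584, ZNF600 and ZNF653 tied with 1 and 2 each. The highest JUNB value of any member region, 16.4, was inside ZNF507 beside a FOSL2 value of 13.6, 13693 bp from its far end and so outside the 10 kb ranking. The third highest, 10.0 beside 11.6 for FOSL2, was inside ZNF611, 12502 bp from its start-side end. ZNF507 and ZNF611 were named after their values were seen. Inside members, the 16 shared JUNB regions had a median of 5.85 and the 17 JUNB-only ones 3.67, and 182 of the 240 members had no summit of either factor there (75.8%, against 63.7% of other chromosome 19 genes, 58.6% of ZNF genes elsewhere and 49.5% of all genes).

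**Figure D3:**
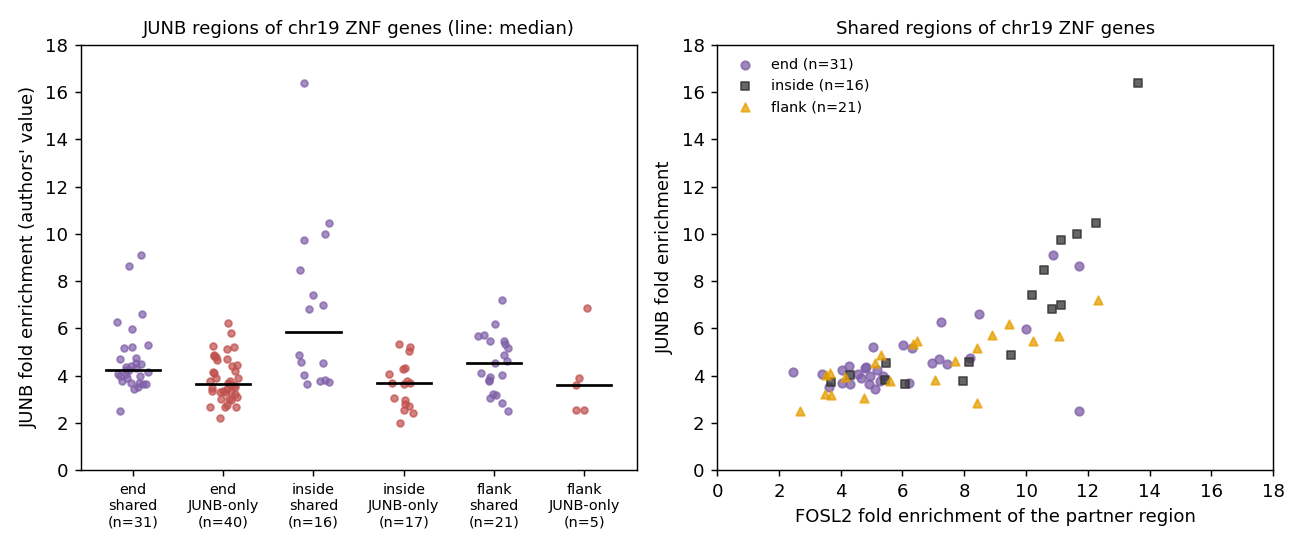
Left, the JUNB fold enrichment (y axis, authors' value) of each JUNB region of a chromosome 19 ZNF gene, by place and class (x axis), with the median as a line: 4.26 for shared and 3.65 for JUNB-only regions at ends. Right, JUNB (y axis) against FOSL2 (x axis) fold enrichment of the shared regions, with the pair of 13.6 and 16.4 inside ZNF507 at the upper right, a gene named for that value.

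FOSL2-only regions near members included strong ones. That of ZNF114 (14.1) had its summit 10229 bp from the gene and 3906 bp from an end of CARD8, which is no member. ZNF69 and ZNF763 shared a FOSL2-only region of 11.1, and ZNF565 (9.71), ZNF577 (9.14) and ZNF431 (8.84) followed. None of these last 5 genes had a JUNB region within 10 kb.

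The members fell into 10 clusters of at least 5, defined as runs with gaps of at most 500 kb between neighbours, with 12 members outside them. In order along the chromosome (hg38) these were cluster 1 from 2819868 to 2944971, cluster 2 from 8509678 to 9786160, cluster 3 from 11483429 to 12633834, cluster 4 from 19668153 to 24129968, cluster 5 from 34675979 to 34964229, cluster 6 from 36182060 to 37779586, cluster 7 from 43530835 to 44500522, cluster 8 from 51571283 to 53580269, cluster 9 from 55476617 to 56671757 and cluster 10 from 57191500 to 58489533. Together they covered 14.4 Mb, with 14.6 regions per Mb for FOSL2 and 10.2 for JUNB, and the rest of the chromosome had 35.0 and 22.5.

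Clusters 4, 5 and 6 had few called regions of either factor. A gene without a called region is not shown to be unbound, since how reads that fit several gene copies were treated is unknown here and its part in these counts was not tested. Of their 66 members, 1 had a JUNB region at an end (29.3% of all genes had), and 56 had neither factor within 10 kb (24.3% of all genes). Cluster 4, the longest, held 3 JUNB and 13 FOSL2 regions in 4.46 Mb (0.672 and 2.91 per Mb). Its 1 member with both factors nearby was ZNF430, with a JUNB-only region of 3.77 at its start and a FOSL2-only region of 4.07 further off. ZNF91, a repressor of SVA retrotransposons in this cluster, had its nearest JUNB summit 367626 bp and its nearest FOSL2 summit 133101 bp from an end. Cluster 5 had 1 region of each factor in 0.288 Mb, JUNB at 3.77 inside ZNF302, 421 bp from an end of SCGB2B2, which is no member, and FOSL2 at 4.43 near ZNF30. Cluster 6 had no JUNB region in 1.60 Mb and 3 FOSL2 regions, the strongest (9.71) inside ZNF565, and 22 of its 24 members had nothing within 10 kb. The protein-coding genes between the members of clusters 4 and 6 that are no members, 2 and 6 in number, had neither factor at an end.

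The other clusters carried both factors. Whether regions were called with equal sensitivity in each cluster is unknown, and its part in these counts was not tested. Over all protein-coding genes, 29.3% had a JUNB region at an end, 31.2% a FOSL2 region and 14.1% a JUNB-only region. In cluster 10, JUNB was at an end of 22 of 41 members (53.7%) and FOSL2 at an end of 14 (34.1%), and 12 members had a JUNB-only region there. ZNF274, which marks the 3′ ends of other zinc finger genes for silencing, had the highest JUNB value within 10 kb in this cluster, a shared pair of 8.48 (FOSL2) and 6.60 (JUNB). ZNF324 had the highest FOSL2 value, 10.2. In cluster 8, JUNB was at an end of 15 of 39 members (38.5%) and FOSL2 at an end of 12 (30.8%). A JUNB-only region was at an end of 10 members there. Of the 34 JUNB regions in the cluster, 55.9% were JUNB-only (Wilson interval 39.5 to 71.1). On the chromosome outside all clusters 30.5% were (27.7 to 33.4). The highest JUNB value of cluster 8 within 10 kb of an end was 4.78, at ZNF888, below that of the pair deep inside ZNF611. The imprinted member ZNF331 of this cluster had none of either factor within 10 kb. Cluster 9 went the other way: FOSL2 was at an end of 8 of 16 members and JUNB at an end of 4, and no member had a JUNB-only region at an end. Its leading members were the overlapping genes ZNF580 and ZNF581 for JUNB (6.86 for both, from 1 JUNB-only region with its summit 637 bp from an end of CCDC106, which is no member) and ZNF628 for FOSL2 (7.26). Cluster 7 had JUNB at an end of 9 and FOSL2 at an end of 8 of 23 members, cluster 3 had 5 and 8 of 25, cluster 2 had 4 and 3 of 13, and cluster 1 had 3 and 2 of 5.

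**Figure D4:**
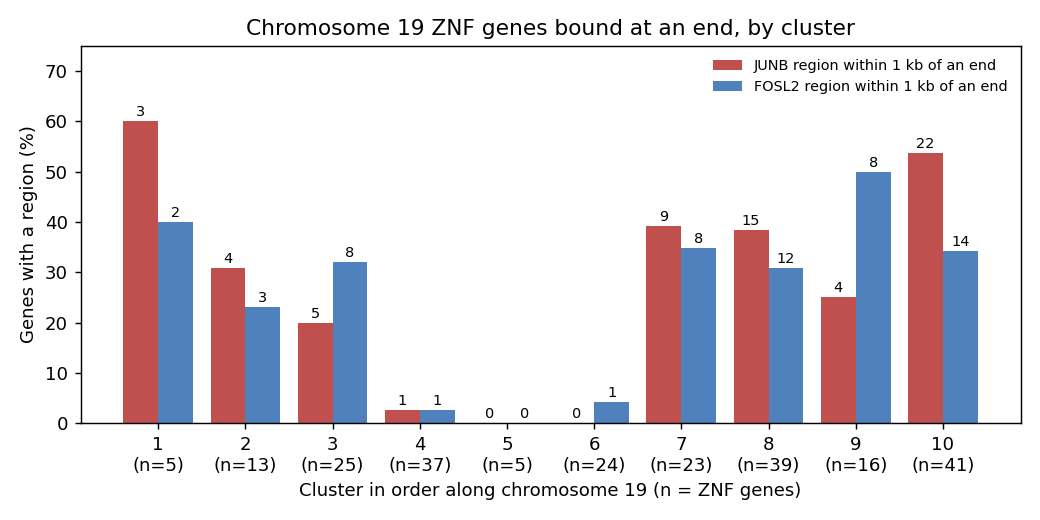
Bars give the percentage of ZNF genes (y axis) with a JUNB or a FOSL2 region within 1 kb of an end in each of the 10 clusters (x axis, in order along the chromosome), with the number of genes above each bar. Clusters 4, 5 and 6 lie at or near 0, and cluster 10 reaches 53.7% for JUNB.

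The cyclic AMP element lay at the starts of 5 members of cluster 2. TGACGTCA was found in 10 of 261 member promoters of 300 bases, 250 before and 50 after a start, belonging to 9 genes (3.83%, against 3.49% for ZNF genes elsewhere, 2.95% for other chromosome 19 genes and 2.26% of all 22132 promoters of protein-coding genes). The element with the 22 bases before it is shown for 7 of these genes, with the element in capitals. In order of the lines the sites are chr19:9584547-9584576, chr19:9675100-9675129, chr19:9621248-9621277, chr19:9435583-9435612 and chr19:9538659-9538688 on the minus strand, and chr19:57280432-57280461 and chr19:57320456-57320485 on the plus strand.
ZNF121: ggcccgaggctcggagcggaagTGACGTCA
ZNF562: ggccggaggctcggagcggaagTGACGTCA
ZNF561: ggccagagtgttgaagcggaagTGACGTCA
ZNF266: ggtttgaggctggaggcggaagTGACGTCA
ZNF426: ggcccgaggcggagagcgtaaaTGACGTCA
ZNF460: gcgggacttccgcttcttcgtgTGACGTCA
ZNF543: gtgggacttccgcttcgtcgcgTGACGTCA
The first 5 genes belong to cluster 2 and the last 2 to cluster 10. ZNF121, ZNF562 and ZNF561 each had a JUNB-only region over the site, of 6.22, 5.15 and 4.44. ZNF266 had a FOSL2-only region of 3.95 over it, and ZNF426, which has the same element after other bases, had no region within 1 kb. The 12 bases gaagtgacgtca, the element with the 4 before it, occurred in the promoters of 4 of 210 members (1.90%), all in cluster 2, and of 20 of 15812 protein-coding genes (0.126%). The stretch was read from the sites of these 4 members, so its higher share in members follows from that choice and is no separate result. Of the 22 promoters of protein-coding genes that held the stretch, 10 lay under a shared region, 6 under a FOSL2-only one, 5 under a JUNB-only one and 1 under none. TGACGTCA was in 4 of 40 member promoters under a JUNB-only region (10.0%) and 2 of 26 under a shared one (7.69%). It was in 1 of 25 under a FOSL2-only region and 3 of 170 under none. Over all genes these 4 shares were 2.87, 6.02, 4.36 and 1.32%. The 4 member promoters under a JUNB-only region were those of ZNF460 and of ZNF121, ZNF562 and ZNF561, which are neighbours with similar bases before the element. ZNF121 and ZNF562 had the 18 bases ggagcggaagtgacgtca in common, which no other promoter in the table of protein-coding genes held. In cluster 10, the region at ZNF460 was JUNB-only (5.24), and that at ZNF543 was shared (7.25 for FOSL2 and 6.28 for JUNB). At ZNF460 the JUNB summit lay 40 bp before the start at 57279982, not at the printed site, which is beside another annotated start. The remaining pair were ZNF547, under a shared region, and ZNF875, under none. These genes were singled out after their values were seen, and the stretches of 12 and 18 bases were taken from their own sites.

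In all, 9 motifs were searched on both strands of the promoters. TGANTCA, which covers the AP-1 site and 2 further spellings, was in 16 of 261 member promoters (6.13%, against 6.15% of all). It was in 4 of 40 promoters under a JUNB-only region, 3 of 26 under a shared one, 5 of 25 under a FOSL2-only one and 4 of 170 under none. Over all genes these shares were 2.78, 14.7, 10.5 and 4.73%. The shorter TGACG, which also lies within TGACGTCA, was in 34.9% of member promoters (27.9% of all) and in 42.5% of those under a JUNB-only region (36.5% of all under one). Members stood highest for CCGGAAG, the ETS site, in 39.8% of promoters against 31.0% for ZNF genes elsewhere, 13.6% for other chromosome 19 genes and 12.8% of all, and for CCAAT, bound by NF-Y, in 49.0% against 34.6% of all. CCGGAAG was in 45.0% of member promoters under a JUNB-only region, 46.2% under a shared one, 40.0% under a FOSL2-only one and 37.6% under none. GGGCGG (SP and KLF factors) was in 66.7% (65.6% for other chromosome 19 genes, 56.3% of all), AAGATGGCG (YY1) in 2.68% (2.42%), the NRF1 palindrome in 3.07% and the ZBTB33 palindrome in 0.766%. Median GC content was 60.3% for member promoters and 62.3% for all, and its part in these shares was not tested. A JUNB-only region lay over 15.3% of member promoters, against 14.3% for ZNF genes elsewhere, 8.24% for other chromosome 19 genes and 9.90% of all, and a shared region over 9.96%, against 16.3, 11.1 and 11.6%. A match is a description of letters, not evidence of a bound site.

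**Figure D5:**
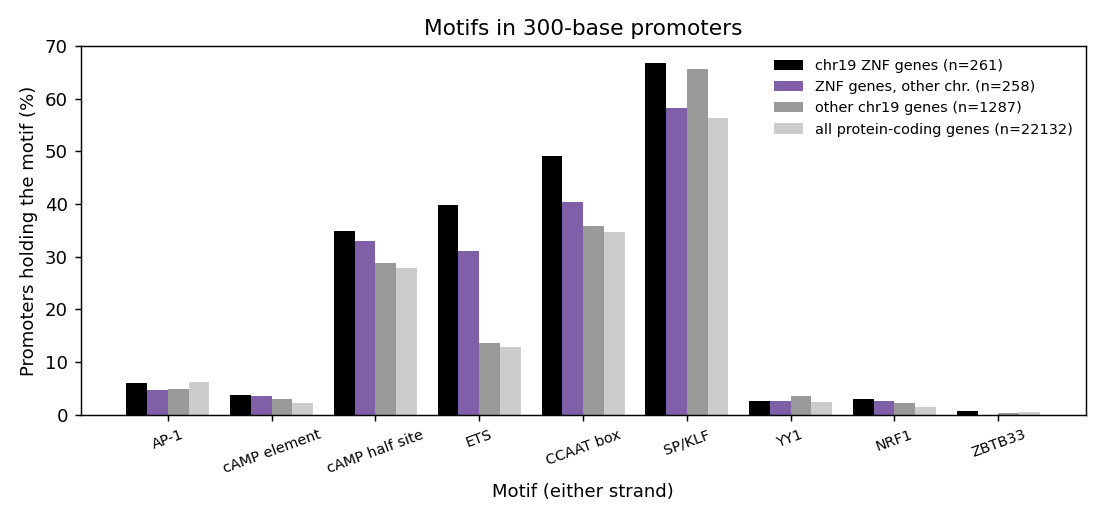
Bars give the percentage of 300-base promoters (y axis) that hold each motif on either strand (x axis) in 4 sets of genes. The ETS site stands at 39.8% for the chromosome 19 ZNF genes and at 12.8% for all protein-coding genes, while the AP-1 site is at 6.13 and 6.15%.

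The genes of the repression machinery that KRAB zinc finger proteins use had FOSL2 more often than JUNB nearby, as was so for all protein-coding genes. Of 21 genes, 19 had a FOSL2 region within 10 kb of an end (90.5%, background 70.2%) and 13 a JUNB region (61.9%, background 56.1%). Of these 13, 10 had a shared one (47.6% of the 21, background 43.5%). At an end, FOSL2 was found in 9 (42.9%, background 31.2%) and JUNB in 7 (33.3%, background 29.3%). TRIM28, the corepressor that binds the KRAB domain and itself a gene of chromosome 19, had a shared pair at an end, of 7.53 (FOSL2) and 5.78 (JUNB). SETDB1, the methyltransferase TRIM28 brings in, had none within 1 kb and up to 9.29 and 6.16 within 10 kb. Of the genes for heterochromatin protein 1, CBX5 (7.58 and 3.55) and CBX1 (3.51 and 3.93) had both factors at an end and CBX3 had FOSL2 alone within 10 kb (4.41). Among the genes of the HUSH silencing complex and its partner, TASOR (9.74) and MPHOSPH8 (5.30) had FOSL2 alone within 10 kb, PPHLN1 had both at an end (9.79 and 4.50) and MORC2 had neither. Of 19 chromosome 19 genes with the names ZFP, ZSCAN, ZIM or ZBTB, or ZIK1 and PEG3, 3 had a JUNB and 3 a FOSL2 region at an end (15.8% each, backgrounds 29.3% and 31.2%), and 13 (68.4%) had none of either factor within 10 kb, against 24.3% of all genes.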

How the data were processed

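FOSL2 and JUNB ChIP-seq regions of HaCaT cells were used as deposited. The submitters' processing notes list hg38, MACS2, deepTools, Bowtie2, Picard 1.89 and SAMtools 1.8. Not given in the sources used here are the control, the treatment of reads that fit several gene copies and the way the 3 libraries of each factor were combined. Per the file, each deposited region has a score (10 times the −log10 p), a fold enrichment (a linear ratio), a −log10 q and a summit offset, all written by the authors' peak caller. The fold enrichment is the authors' value, was used within its list only, and was not compared in level between lists. Depth per library is unknown.

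From these, overlaps (at least 1 bp), distances to gene ends, shares with 95% Wilson intervals and motif matches were computed in Python 3.11.15 with scipy 1.17.1, with overlap and distance code tested on simulated data. From the 75704 FOSL2 rows, 1 on another chromosome was dropped. A gene had a region when any base lay within 1 or 10 kb of either end. Places, and the regions counted at ends, were set by the summit. Genes and promoters came from RefSeq tables (GRCh38.p14), and promoters matched 210 of 240 members. Counts of fingers per protein were planned and not run. Named genes were the 6 members with the highest value in each class, the leading member of each cluster, those with most regions inside, those beside the 1 kb limit, and ZNF91, ZNF274, ZNF331 and ZNF536. ZNF507, ZNF611, and the genes with a cyclic AMP element, with the stretches counted around it, were added after values were seen. Members and lists were chosen with earlier results of these data known. Alternatives were other overlaps, distances, thresholds, cluster gaps and memberships.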

Additional observations from a re-analysis of the deposited data

How the results depend on the processing

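No paired analysis was possible because each factor had 1 list for its 3 libraries, and for the same reason no library could be left out. Of 51 recomputed values, 44 stayed within the limits set and 7 moved. The JUNB-only share at member ends, 56.3%, became 70.4% with summits within 100 bp counted as shared and 41.0% once regions under a −log10 q of 10 were dropped (57.9 and 28.8% at other chromosome 19 genes). It was above that of other chromosome 19 genes under all 9 alternatives, but several of these could hardly change it. A −log10 q of at least 2, or 1 trailing letter in the symbol, left 40 of 71. Leaving out cluster 4, or regions at ends of other genes, changed the members' side only (55.7 and 58.1%). With a threshold of 10 on −log10 q, the members with JUNB at an end fell to 36. The median fold enrichment of JUNB-only regions at member ends rose to 4.74, and JUNB was at an end of 3 repression genes and 1 of the other zinc finger genes. Within 50 kb, 109 members (45.4%) had a shared region, against 80.3% of other chromosome 19 genes. The members' share was lower under 8 alternatives, with the 1 that can only lower the members' count left aside. Several of these 8 could hardly turn it. A −log10 q of at least 2 left 57 of 240 members, and 1 trailing letter gave 59 of 246. The members' share with JUNB at an end was above that of other chromosome 19 genes under 4 of 8 alternatives and below under 4. It was 31.5% with cluster 4 left out, a choice made after seeing the data, as was leaving out regions within 10 kb of other genes, which can only lower the members' count and took the 57 with a shared region to 40. The highest cluster share, 60% in cluster 1, rests on 5 genes.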
